A study of Mus musculus with 96 samples.

Results

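The interleukin-1 ligand genes Il1a and Il1b and the antagonist gene Il1rn were followed on 2-colour arrays of RAW 264.7 cells, a mouse macrophage cell line, through all 16 treatment-time groups. Members were chosen by gene symbol: every probe that the platform annotation assigns to 1 of the 3 genes was kept, which gave 3 genes of 10698 named on the array, with 7 of its 16281 probes. Il1a had probes 2818 and 16708, Il1b had probes 1321, 3465 and 11552, and Il1rn had probes 6346 and 18401.

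Treated and untreated RNA of the same time shared an array, so each value is the log2 ratio of treated to untreated cells, called the response here: a response of 1 is a doubling. A response or difference is said to be called where limma's moderated test gave a Benjamini-Hochberg adjusted p under 0.05 over all probes tested. The treatments were lipopolysaccharide (LPS, a bacterial cell wall component that activates macrophages; 100 ng with 100 pM LPS binding protein, no volume being stated), interferon gamma (IFNG, 5 nM), 2-methyl-thio-ATP (2MA, which activates purinergic receptors; 500 uM, with 500 nM in 1 description), LPS with IFNG and LPS with 2MA. Each was given for 1, 2 and 4 h, and LPS also for 30 min. The 96 arrays form 3 sets per group, each set hybridised in both dye orientations, and a set value is the mean of both orientations after the sign of the reversed array was turned. All groups are cultures of the same line. Nothing in the labels says whether the 3 sets are separate cultures, and the spread behind the p-values, that between sets, could therefore be technical only.

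Interleukin-1 alpha and beta bind the same receptor, Il1r1, which recruits the accessory chain Il1rap and signals through Myd88, and the antagonist encoded by Il1rn occupies that receptor without signalling. Macrophages make both ligands as precursors after toll-like receptor stimulation. Il1b is then cut by caspase-1 in an inflammasome, for which extracellular ATP acting on the P2rx7 channel is a known trigger in primed macrophages. The arrays measured RNA only, so neither processing nor release was seen here.

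The 3 genes lie on chromosome 2 of GRCm38.p6. Il1a (chr2:129299609-129310186) and Il1b (chr2:129364569-129371164) are neighbours on the minus strand, 54382 bp apart, and Il1rn (chr2:24336860-24351491) lies 104948117 bp away on the plus strand. The promoter windows below, each from 250 bases before to 50 bases after a start site in RefSeq (GRCm38.p6), are shown because the responses of the 3 genes are set side by side here. Capitals mark matches, on either strand, to TATAAA (the usual core of a promoter's TATA box), TGACTCA (AP-1), the kappaB consensus, TTNNGNAA (C/EBP-like), TTCNNNGAA (GAS) or TGACGTNA (CRE core). Il1a and Il1b each have 1 listed start, and Il1rn has 3, of which the most upstream and the most downstream are printed.
Il1a, chr2:129309923-129310222, minus strand: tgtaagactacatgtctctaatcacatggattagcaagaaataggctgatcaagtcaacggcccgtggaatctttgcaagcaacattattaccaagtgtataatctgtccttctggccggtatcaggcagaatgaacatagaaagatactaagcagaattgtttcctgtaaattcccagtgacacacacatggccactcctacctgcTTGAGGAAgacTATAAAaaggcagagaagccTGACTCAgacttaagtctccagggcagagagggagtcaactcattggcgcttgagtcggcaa
Il1b, chr2:129371090-129371389, minus strand: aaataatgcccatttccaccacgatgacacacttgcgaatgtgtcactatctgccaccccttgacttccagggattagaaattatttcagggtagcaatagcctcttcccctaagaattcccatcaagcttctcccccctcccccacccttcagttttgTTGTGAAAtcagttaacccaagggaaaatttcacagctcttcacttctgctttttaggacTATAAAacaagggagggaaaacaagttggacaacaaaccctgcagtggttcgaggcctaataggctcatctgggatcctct
Il1rn upstream start, chr2:24336610-24336909, plus strand: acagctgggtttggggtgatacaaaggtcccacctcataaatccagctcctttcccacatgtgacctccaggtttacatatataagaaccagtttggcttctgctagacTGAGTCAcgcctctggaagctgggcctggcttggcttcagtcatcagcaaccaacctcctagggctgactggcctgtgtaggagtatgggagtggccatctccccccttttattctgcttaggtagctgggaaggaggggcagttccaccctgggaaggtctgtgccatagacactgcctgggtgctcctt
Il1rn downstream start, chr2:24345121-24345420, plus strand: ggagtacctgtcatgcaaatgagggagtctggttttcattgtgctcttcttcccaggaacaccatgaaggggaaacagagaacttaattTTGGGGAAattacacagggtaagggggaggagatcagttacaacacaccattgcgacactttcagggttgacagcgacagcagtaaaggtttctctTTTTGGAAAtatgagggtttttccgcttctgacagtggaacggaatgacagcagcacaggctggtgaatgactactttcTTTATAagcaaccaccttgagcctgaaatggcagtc

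The Il1a and Il1b windows both held a TATAAA match, at positions -32 to -27 and -31 to -26 from the start, and a C/EBP-like match, at -43 to -36 and -91 to -84. Il1a also held TGACTCA at -12 to -6, an AP-1 match that the Il1b window lacked, and the upstream Il1rn window held it on the opposite strand at -141 to -135. In the downstream Il1rn window were 3 C/EBP-like matches, 2 of which overlap each other, and a TATAAA match on the opposite strand after the start. Over 32851 promoter windows of the same length, 13.6% held TATAAA, 5.20% TGACTCA, 8.46% the kappaB consensus, 40.7% TTNNGNAA, 8.30% TTCNNNGAA and 2.93% TGACGTNA. No kappaB, GAS or CRE letters were in any of these windows. These matches describe letters and not bound sites.

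Between 13508 and 15004 of the probes had a value on an array, and the others were at exactly 0, which was read as no measurement. The arrays carry no read depth, and their number limits the precision. Dye-reversed arrays of a set correlated from -0.784 to 0.396 over all probes before turning, and 10 of 48 pairs lay above 0. Of 7 macrophage markers with a probe, 6 (among them Adgre1, Csf1r and Cd68) had a value on all 96 arrays and Lyz2 on 3. A value on the array is no sign of expression by itself, since the B cell markers Ms4a1 and Cd79a also had values on all 96 arrays, and ratios give no level of a cell type.

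Il1a had a value on 96 arrays with probe 2818 and on 95 with probe 16708, Il1b on 96, 96 and 94 with probes 1321, 3465 and 11552. Il1rn probe 6346 had a value on 52 of 96 arrays and probe 18401 on 3. Those 3 values of probe 18401 were 0.46 in a 2MA set at 2 h, 0.34 in an IFNG set at 4 h and -0.13 in an LPS+2MA set at 4 h, too few for any test. Probes of 1 gene followed each other closely: over the 16 group means, r was 0.999 between the Il1a probes and 0.984 to 0.996 between the Il1b probes.

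Il1a RNA rose from 1 h of LPS on, and no response to IFNG or 2MA alone was called. At 30 min of LPS the 3 set values of probe 2818 were 0.31, 0.60 and 0.42, a mean of 0.44 ± 0.15 (SD, n = 3) that was not called (adjusted p = 1). At 1 h they were 0.92, 1.57 and 1.17, with a mean of 1.22 ± 0.33 (adjusted p = 0.00642), a 2.33-fold rise, called in 3.20% of all probes in that direction. All 3 sets at 1 h lay above all 3 at 30 min.

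The largest step came between 1 and 2 h. Probe 2818 read 3.17, 3.40 and 3.11 at 2 h, a mean of 3.23 ± 0.15 or 9.35-fold (adjusted p = 5.08e-11), where 7.34% of all probes were called higher. At 4 h it read 2.90, 3.35 and 4.02, with a mean of 3.42 ± 0.56 (adjusted p = 3.93e-12) against 11.9% of all probes called higher. The 4 h sets overlapped the 2 h sets, so a plateau and a slow further rise are not distinguished. Probe 16708 gave means of 0.45, 1.35, 3.17 and 3.41 at the same 4 times. The 1 h call of both probes was lost without set 1, at means of 1.37 and 1.39 (adjusted p = 0.136 and 0.0872), and without set 2, at 1.04 and 1.30 (0.129 and 0.0622). Over all probes, 802 calls in either direction at 1 h became 346 without set 1 and 463 without set 2.

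For the single ligands IFNG and 2MA the Il1a values stayed near 0. Over both probes and all times the mean response lay between -0.17 and 0.12 with IFNG and between 0.07 and 0.20 with 2MA, and none of the 12 tests was called by limma, 0 also at an unadjusted p under 0.05. Of all probes 1.00%, 2.86% and 6.33% were called higher at 1, 2 and 4 h of IFNG.

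Il1b, the ligand that needs caspase-1 for activity, was called at every LPS time, from 30 min on, with all 3 probes. At 30 min of LPS probe 3465 already read 0.97, 1.83 and 1.45, a mean of 1.42 ± 0.43 or 2.67-fold (adjusted p = 0.000685), when 0.807% of all probes were called higher. Probes 11552 and 1321 rose by 1.51 and 0.84 (adjusted p = 0.000318 and 0.038). With a set left out these early means stayed near their size while calls were lost. Probe 1321 gave 0.98, 0.76 and 0.79 without set 1, 2 or 3 (adjusted p = 0.208, 0.706 and 0.0643), probe 3465 gave 1.21 without set 2 (0.12) and probe 11552 gave 1.34 without set 3 (0.07). Calls over all probes at 30 min went from 162 to 112, 102 and 99 without set 1, 2 or 3. On arrays with treated RNA in Cy5 only, probe 1321 gave 0.42 (adjusted p = 0.479).

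By 2 h the rise of Il1b probe 3465 was the largest of 15008 probes tested. Probes with a value in fewer than 2 sets were outside this ranking, among them Acod1, which read 5.37 on its 1 array with a value. The sets of Il1b probe 3465 read 3.31, 3.64 and 2.68 at 1 h (mean 3.21 ± 0.49, 9.26-fold, adjusted p = 7.69e-12). They read 5.24, 4.89 and 4.95 at 2 h (mean 5.03 ± 0.18, 32.6-fold, adjusted p = 1.11e-17) and 5.14, 5.23 and 5.12 at 4 h (mean 5.16 ± 0.06, 35.9-fold, adjusted p = 1.28e-18). The 2 h and 4 h sets overlapped, and both lay above every 1 h set. Probes 1321 and 11552 reached 4.75 and 4.34 at 4 h. Probe 1321 differed between dye orientations by a median of 0.55, against 0.29 for probe 11552, each over the sets with both orientations.

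With IFNG alone the 9 Il1b means ran from -0.11 to 0.35, none called by limma and 0 at an unadjusted p under 0.05. With 2MA alone Il1b was higher, with means from 0.54 to 1.29 in 9 tests, of which 5 were called. The 2 h sets of probe 3465 were 2.50, 0.68 and 0.41 (mean 1.20 ± 1.14, adjusted p = 0.00808), and those of probe 11552 were 2.43, 0.87 and 0.58 (mean 1.29 ± 0.99, adjusted p = 0.00391). Set 1 was high in both, and 1.17% of all probes were called higher at that time. Probe 1321 depended on the dye, with mean Cy5 minus Cy3 gaps of -0.82, -0.68 and -1.33 at 1, 2 and 4 h. Its 2 h call was lost with treated RNA in Cy5 only, at 0.50 (adjusted p = 0.247), and without set 2, at 0.73 (0.185). Over all probes, 207 calls became 1284 and 227. With Cy3 only, probe 1321 was called at 1 and 4 h, at 0.96 and 1.35 (adjusted p = 0.00775 and 0.000102).

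Without set 1 the mean of probe 3465 at 2 h dropped to 0.54 and that of probe 11552 to 0.72, and the call of all 3 Il1b probes was lost (adjusted p = 1). Calls over all probes at 2 h of 2MA went from 207 to 23 without that set. At 4 h probes 3465 and 11552 rose by 1.04 and 1.23 (adjusted p = 0.0264 and 0.00587; 1.45% of probes called higher), and both calls were lost without set 1, at 0.84 and 0.93 (0.487 and 0.442), and without set 3, at 0.94 and 1.04 (0.181 and 0.16). Calls over all probes at 4 h of 2MA went from 291 to 22 without set 1 and to 234 without set 3. All 5 calls were also lost when only the 2MA group of that time was fitted (adjusted p = 0.549, 0.492 and 0.258 at 2 h, 0.0732 and 0.132 at 4 h). With that fit, calls over all probes fell from 207 to 28 at 2 h and from 291 to 32 at 4 h. At 1 h no Il1b probe was called in the main fit. The fit to the 2MA group alone called probes 3465 and 11552 there (adjusted p = 0.023 and 0.011). So did array values with a dye term and the set as a random block (0.00487 and 0.00214). Over all probes these 2 settings gave 107 and 639 calls at 1 h, against 241 in the main fit. Over all probes the sets of the 2MA groups correlated weakly with each other, from -0.266 to 0.528 at 2 h and from -0.025 to 0.337 at 4 h, whereas the LPS sets at 4 h correlated from 0.734 to 0.840. The part of this set difference in the Il1b values was not tested.

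Il1rn, the antagonist, rose with IFNG alone at 4 h and with 2MA alone at every time. Probe 6346 read 0.41, 0.49 and 0.47 at 1 h of IFNG, 0.33, 0.47 and 0.66 at 2 h, and 0.91, 1.46 and 0.83 at 4 h. The 4 h mean of 1.07 ± 0.34, a 2.10-fold rise, was called (adjusted p = 0.000901; 6.33% of probes called higher), and without set 2 it was 0.87 and not called (adjusted p = 0.0735). Calls over all probes went from 1737 to 1559 without that set. The 1 and 2 h means of 0.46 ± 0.04 and 0.48 ± 0.17 were not called, although every array was above 0, and they were called when only the compared group was fitted (adjusted p = 0.0287 and 0.023). With that fit, calls over all probes rose from 169 to 256 and from 510 to 547.

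With 2MA alone Il1rn read 1.48, 0.82 and 0.59 at 1 h, 1.86, 0.92 and 0.71 at 2 h and 2.03, 0.85 and 0.72 at 4 h. Set 1 was the highest at each time, and all 18 arrays were above 0. The means of 0.96 ± 0.47, 1.16 ± 0.61 and 1.20 ± 0.72 were called (adjusted p = 0.0202, 0.0032 and 0.00224), with 0.951%, 1.17% and 1.45% of all probes called higher. The 1 h call was lost without set 1, at 0.70 (adjusted p = 0.102), or set 2, at 1.04 (0.0818), and the 4 h call without set 1, at 0.79 (0.059). Over all probes, calls at 1 h went from 241 to 30 without set 1 and to 378 without set 2. Those at 4 h went from 291 to 22 without set 1. When only the compared group was fitted, the 2 and 4 h calls were lost (adjusted p = 0.0997 and 0.0901). With that fit, calls over all probes fell from 207 to 28 and from 291 to 32.

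LPS alone raised Il1rn at 1 and 2 h. Probe 6346 read 0.11, 0.43 and 0.55 at 30 min (not called), then 1.59, 1.53 and 1.70 at 1 h, a mean of 1.61 ± 0.09 or 3.05-fold (adjusted p = 1.22e-05). At 2 h the sets with a value read 2.54 and 2.05, a mean of 2.29 ± 0.34 (n = 2, adjusted p = 5.17e-07), set 2 having none; 1 of the 2 h set values and 1 of the 1 h set values came from a single orientation.

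From then on the probe fell out of the data. It had a value on all 36 arrays without LPS and on all 6 at 30 min of LPS, on 5 at 1 h, on 3 at 2 h and on 0 of 6 at 4 h. Of the LPS+IFNG arrays only 1 had a value, 2.84 at 1 h, and of the LPS+2MA arrays only 1, 2.37 at 1 h. Hence no effect of a second ligand on the antagonist could be tested, and no Il1rn level is known in the groups where Il1a and Il1b were highest.

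**Figure D1:**
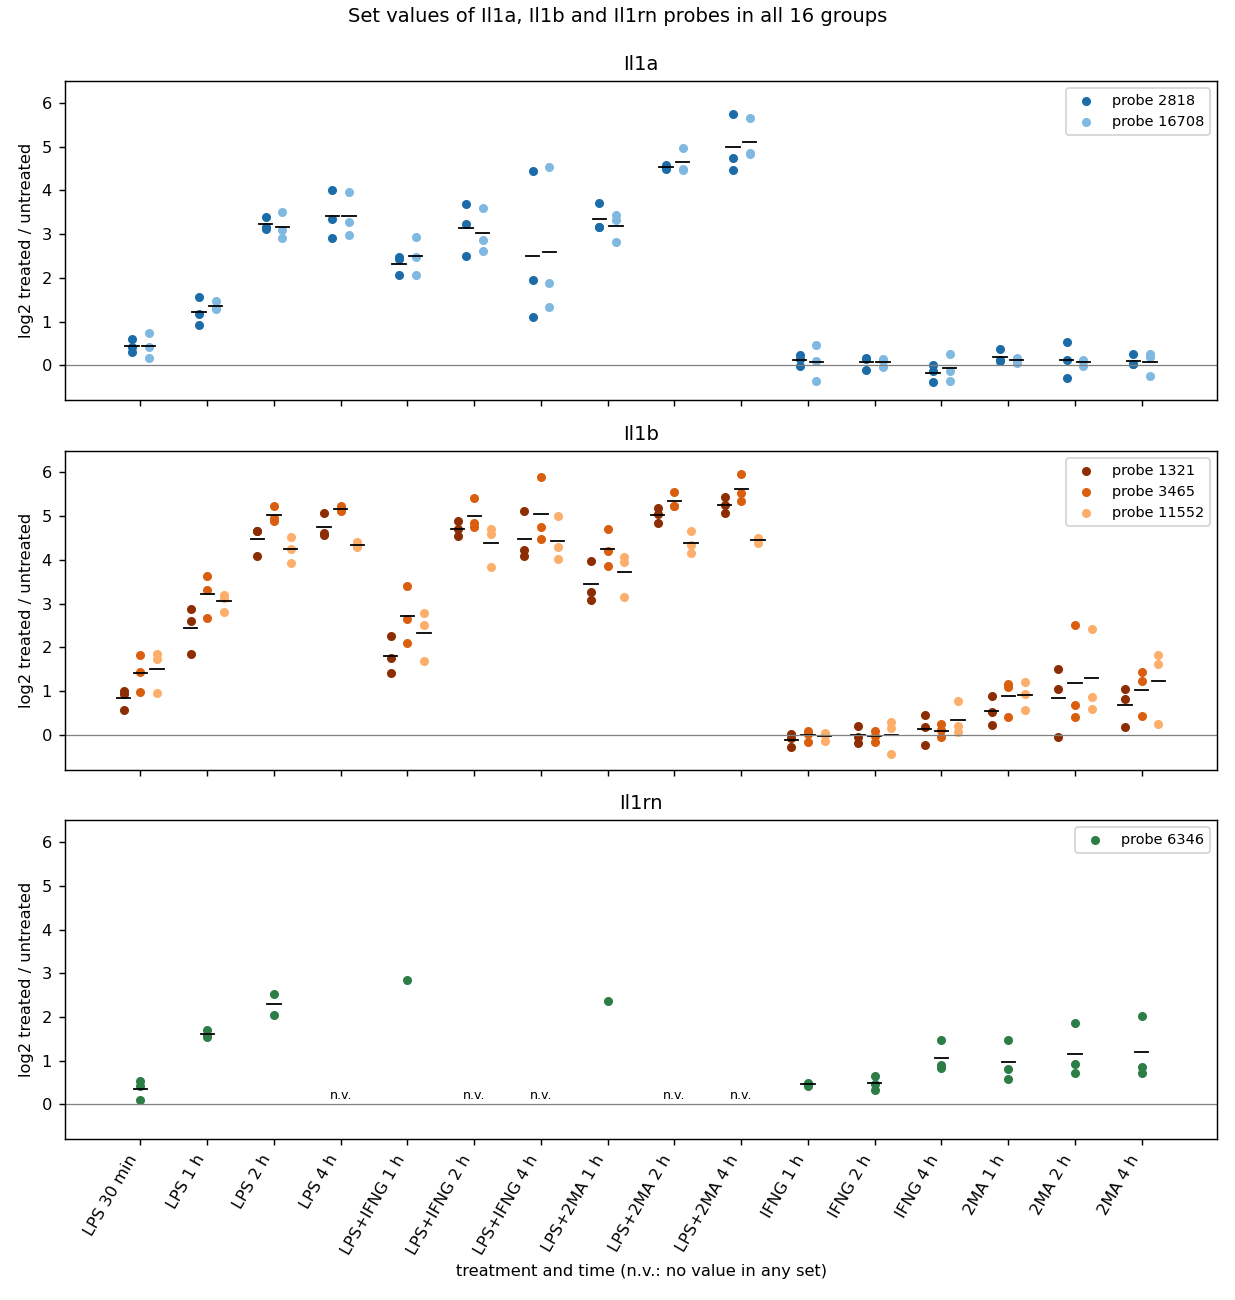
Log2 ratio of treated to untreated RNA (y axis) of 6 member probes in the 16 treatment-time groups (x axis). Points are set values, bars the group means, and n.v. marks groups with no value; Il1a and Il1b are near 0 with IFNG, Il1a is also near 0 with 2MA, and the 3 Il1a sets of LPS+IFNG at 4 h are widely spread, from 1.10 to 4.45 for probe 2818.

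**Figure D2:**
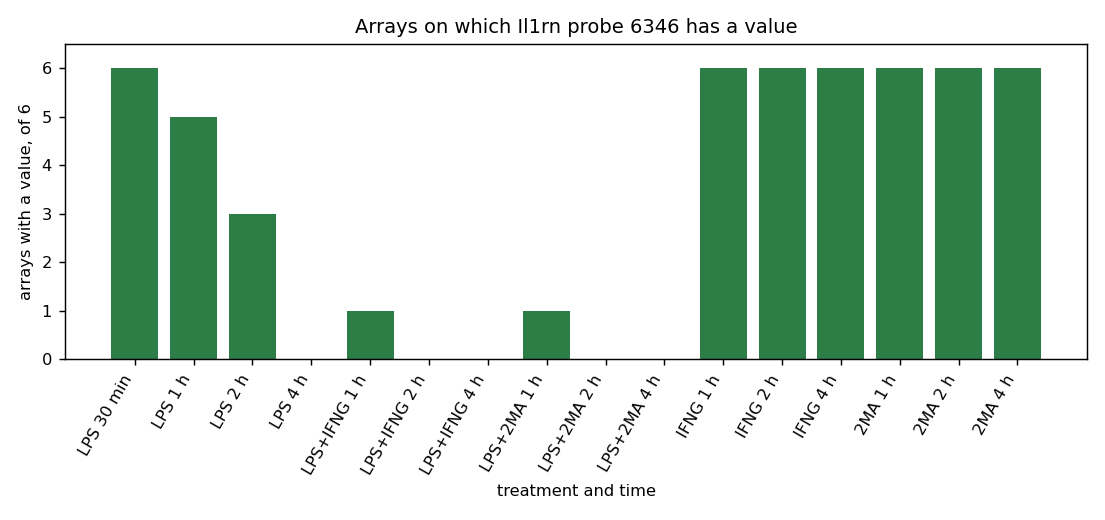
Number of arrays, of 6 in each group (y axis), on which Il1rn probe 6346 had a value, by treatment and time (x axis). All 6 have one in every IFNG and 2MA group and at 30 min of LPS, 3 at 2 h of LPS, and none at 4 h of LPS or at 2 and 4 h of both pairs of ligands.

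In all, 59 of 89 responses of member probes were called higher and 0 lower. Of all probes, 3.20% to 11.9% were called higher between 1 and 4 h of LPS, 4.67%, 9.39% and 14.5% at 1, 2 and 4 h of LPS+IFNG, and 3.45%, 8.10% and 14.1% at 1, 2 and 4 h of LPS+2MA. With LPS present these were 18 of 20 tests of Il1a, 30 of 30 of Il1b and 2 of 3 of Il1rn; the exceptions were both Il1a probes and Il1rn at 30 min. On arrays with LPS, Il1b was above 0 on 60 of 60 arrays with probes 1321 and 3465 and on 58 of 58 with probe 11552.

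The second question of the design is whether a second ligand changes the LPS response. For Il1a, 2MA added to LPS gave higher values at every time, in 3 of 3 sets and with both probes. Probe 2818 read 3.71, 3.16 and 3.16 with LPS+2MA at 1 h, where LPS alone gave 0.92, 1.57 and 1.17. The difference of 2.12 (SE 0.42, 95% interval 1.28 to 2.97) was called (adjusted p = 0.0138), while 0.114% of all probes were called in that comparison. The sets of both treatments did not overlap.

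At 2 h LPS+2MA gave 4.52, 4.49 and 4.59 with probe 2818, again above every LPS set, a difference of 1.31 (95% interval 0.46 to 2.15) that was not called (adjusted p = 0.559; 0.0402% of probes called). At 4 h it gave 4.74, 4.47 and 5.74, above every LPS set, a difference of 1.56 (95% interval 0.71 to 2.41; adjusted p = 0.112; 0.283% called). Probe 16708 gave differences of 1.84, 1.47 and 1.71 at the 3 times (adjusted p = 0.0544, 0.28 and 0.0562). LPS+2MA at 4 h was the highest Il1a group, with means of 4.98 ± 0.67 (31.6-fold) and 5.11 ± 0.47 (34.7-fold).

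All 3 set differences of probe 2818 at 1 h were above 1, at 2.79, 1.59 and 1.99. The call was lost without set 1, where the difference was 1.79 (adjusted p = 1), without set 2, where it was 2.39 (0.138), and with treated RNA in Cy3 only, where it was 1.83 (0.252). Calls over all probes went from 17 to 7 in each of these 3 settings. Samples of 1 set deviated together at 2 and 4 h, so the set can be used as a block there. With the set as a block the 4 h differences of both probes were called (adjusted p = 0.027 and 0.00421), as was the 2 h difference of probe 16708 (0.0291). Over all probes the block also raised the calls, from 42 to 194 at 4 h and from 6 to 67 at 2 h.

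With IFNG added to LPS, Il1a was higher than with LPS at 1 h in all 3 sets, by 1.11 (95% interval 0.26 to 1.96; adjusted p = 0.617) for probe 2818 and by 1.14 (0.31 to 1.97; adjusted p = 0.498) for probe 16708, neither called where 1.06% of all probes were. Both were called when only the compared groups were fitted (adjusted p = 0.0262 and 0.0293). Its sets of 2.06, 2.49 and 2.44 lay above every LPS set of probe 2818. At 2 h the differences were -0.09 and -0.14 (2.43% of probes called). At 4 h they were -0.93 (95% interval -1.77 to -0.08) and -0.82 (-1.65 to 0.01), with 3.87% of probes called, and the sets disagreed.

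The LPS+IFNG sets of probe 2818 at 4 h were 1.94, 1.10 and 4.45, so sets 1 and 2 lay below every LPS set and set 3 above every one. Without set 3 the difference was -1.60 (adjusted p = 0.0078) for probe 2818 and -1.51 (adjusted p = 0.00351) for probe 16708. Set 3 is the set that went the other way, so this setting keeps only the sets that agree. Over all probes, 576 calls became 354 without it. Over 14533 probes with a value in all 3 LPS+IFNG sets, the 2 Il1a probes had the largest excess of set 3 over the mean of sets 1 and 2, 2.93 and 2.91, against a median absolute value of 0.166. Set 3 also exceeded that mean for both probes at 4 h with LPS, by 0.89 and 0.82, and with LPS+2MA, by 1.14 and 0.81. Median absolute values over all probes were 0.192 and 0.168 there. The 3 LPS+IFNG sets correlated with each other from 0.813 to 0.882 over all probes. Cxcl9 probe 12552, a chemokine gene induced by IFNG, read 5.57, 6.01 and 5.96 in these sets and 0.62, 0.57 and 0.28 with LPS alone. Its probe 4473 read 5.12, 5.44 and 5.55 in these sets. Set 3 was the highest for Irf1 (3.47, 3.15 and 3.72) and for both Socs1 probes. The Socs1 values were 3.91, 3.47 and 4.30 with probe 42 and 3.03, 2.88 and 3.69 with probe 9168. With LPS alone set 3 was also the highest for Irf1 (2.80, 2.32 and 3.01) and Socs1 probe 9168 (1.37, 1.25 and 1.57). Socs1 probe 42 read 1.96, 1.98 and 1.96 with LPS alone. Whether IFNG acted alike in the 3 sets was not tested.

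None of the 18 Il1b differences was called, by limma, and 3 had an unadjusted p under 0.05. With 2MA added, all 9 were above 0 in every set with a value, from 0.68 to 1.05 at 1 h and from 0.10 to 0.55 at 2 and 4 h. The largest, 1.05 for probe 3465 at 1 h (sets 1.40, 0.23 and 1.52; 95% interval 0.30 to 1.80), was not called (adjusted p = 1). With IFNG added, Il1b went the other way from Il1a at 1 h: probes 1321, 3465 and 11552 were lower in 3 of 3 sets, by means of -0.63, -0.50 and -0.72 (adjusted p = 1 each). The 95% intervals were -1.25 to -0.02, -1.25 to 0.25 and -1.48 to 0.04. At 4 h the differences were -0.27, -0.12 and 0.10, with sets 1 and 2 below 0 and set 3 above 0 for each probe.

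**Figure D3:**
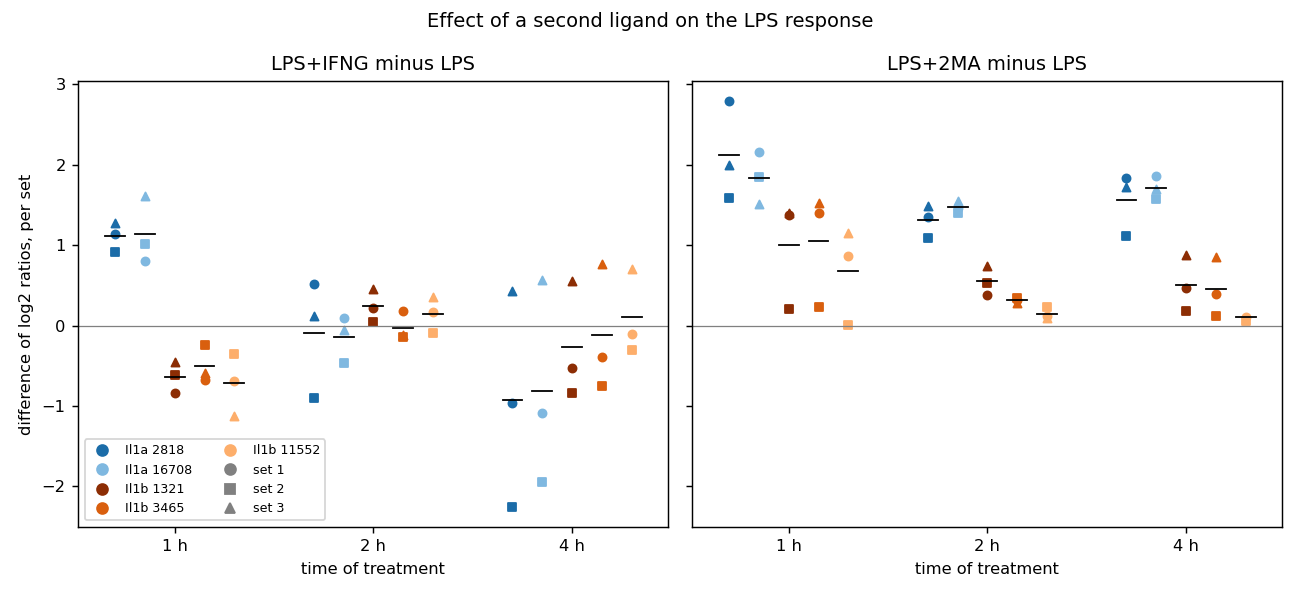
Difference of log2 ratios between LPS with a second ligand and LPS alone (y axis) at 1, 2 and 4 h (x axis), for 5 probes, with 1 point per set and a bar at the mean. With 2MA all Il1a points lie above 0, from 1.09 to 2.79, and with IFNG at 4 h set 3 lies above 0 and the other sets below for every probe.

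Over all 30 of these differences of Il1a and Il1b, 1 was called by limma and 12 had an unadjusted p under 0.05, 6 of them the Il1a differences with 2MA. The share of all probes at that unadjusted threshold was not counted. Hence no unadjusted count in this report has a background to be set against. All contrasts of a given time share their LPS samples.

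Against the sum of the single responses, which is what additivity on the log2 scale gives, 0 of 30 joint responses were called by limma, and 9 had an unadjusted p under 0.05. LPS+2MA exceeded the sum for Il1a in 3 of 3 sets at each time, by 1.92, 1.18 and 1.45 for probe 2818 (adjusted p = 0.732, 1 and 0.834) and by 1.73, 1.40 and 1.64 for probe 16708 (0.998, 1 and 0.532). Of all probes 0.0202%, 0.0269% and 0.0813% were called with 2MA at 1, 2 and 4 h, and 0.115%, 0.336% and 2.44% with IFNG. With the set as a block, where sets pair, the excess of probe 16708 at 4 h was called (adjusted p = 0.00895). The block raised the calls over all probes in that comparison from 12 to 38. For Il1b the LPS+2MA response at 2 h lay below the sum with 2 of its 3 probes, by -1.15 (95% interval -2.07 to -0.22) for probe 11552 and -0.88 (-1.80 to 0.03) for probe 3465, in 3 of 3 sets but not called (adjusted p = 1 each). Probe 1321 gave -0.28 (-1.04 to 0.47), with set 3 above 0, at 0.78. Set 1 gave the largest gaps of these 2 probes, -2.31 and -2.19, and it is the set with the high 2MA values. LPS+IFNG exceeded the sum for Il1a at 1 h by 0.99 and 1.07 in 3 of 3 sets (adjusted p = 1 each).

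Between successive LPS times, 7 of 17 tests were called, all higher. Il1a rose from 1 to 2 h by 2.01 and 1.82 (adjusted p = 0.00288 and 0.00687), where 1.67% of all probes were called higher. Il1b rose from 30 min to 1 h with all 3 probes, by 1.60, 1.79 and 1.54 for probes 1321, 3465 and 11552 (adjusted p = 0.00282, 0.00706 and 0.0338), against 0.563% of probes. It rose again from 1 to 2 h by 2.03 and 1.81 for probes 1321 and 3465 (adjusted p = 2.35e-05 and 0.00221), while probe 11552 gave 1.19 (adjusted p = 0.0971). From 2 to 4 h no member was called, with differences from 0.10 to 0.28, while 3.80% of probes were called higher. Il1rn was higher at 1 h than at 30 min by 1.24 in 3 of 3 sets (adjusted p = 0.0552, and 0.00837 with the set as a block).

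Leaving out set 1 kept only 1 of these 7 calls. Over all probes, calls in either direction fell as well. They went from 107 to 15 for the step to 1 h and from 347 to 94 for the step to 2 h. The steps themselves stayed near their size without set 1: the Il1a steps were 1.89 and 1.61 (adjusted p = 0.334 and 0.466), the Il1b steps to 1 h were 1.39, 1.52 and 1.18 (0.505, 0.363 and 1), and the step of probe 3465 to 2 h was 1.76 (0.0526). Without set 2, 3 were called, and without set 3, 5. All probes gave 22 and 168 calls in these steps without set 2, and 120 and 307 without set 3. The step of Il1b probe 1321 from 1 to 2 h was called in each case.

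The mean effect of IFNG on the Il1a response was above 0 at 1 h and below it at 4 h, where set 3 lay above 0. The change from 1 to 4 h was -2.03 (95% interval -3.23 to -0.84; adjusted p = 0.0935) for probe 2818. For probe 16708 it was -1.96 (-3.13 to -0.79; adjusted p = 0.1). This change, which was not called, was below 0 in 3 of 3 sets. It was called without set 3 (adjusted p = 0.00518 and 0.00259), where calls over all probes went from 185 to 146. None of the 10 tests of a change with time was called by limma, 2 had an unadjusted p under 0.05, and 1.26% of all probes were called for IFNG and 0.0203% for 2MA.

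Ordered by mean response, Il1a ran from LPS+2MA at 4 and 2 h, through a run of groups whose neighbours overlap (LPS at 4 h, LPS+2MA at 1 h, LPS at 2 h, and LPS+IFNG at 2, 4 and 1 h), to LPS at 1 h and 30 min and then the groups without LPS. The breaks where neighbouring sets did not overlap, with both probes, were below LPS+2MA at 2 h, below LPS+IFNG at 1 h and below LPS at 1 h. The 6 highest groups of Il1b probe 3465 were the 2 and 4 h groups with LPS, between means of 5.62 and 5.00, and each overlapped the next in order. The highest, LPS+2MA at 4 h (sets from 5.35 to 5.97), overlapped neither LPS at 4 h (5.12 to 5.23) nor LPS at 2 h (4.89 to 5.24). With probe 1321 its lowest set, 5.085, lay just above the highest LPS set at 4 h, 5.077. Probe 11552 did overlap, at 4.38 to 4.51 in 2 sets against 4.30 to 4.40 with LPS at 4 h and 3.93 to 4.54 at 2 h. For probe 3465, LPS+2MA at 1 h stood apart below the 6 highest groups at 4.26. Its 2MA groups overlapped with LPS at 30 min, at 0.89 to 1.20 against 1.42.

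Among probes of other genes, the group means most like those of Il1a were those of Ifnb1, the interferon beta gene (r = 0.962 and 0.965), Psmd8, a proteasome subunit gene (0.960 and 0.967), and St3gal1 (0.952 and 0.951), over 16 groups and 12896 probes. For Il1b they were Ccl5, a chemokine gene (0.978, 0.976 and 0.967 for probes 1321, 3465 and 11552), Stk40 (0.967, 0.968 and 0.964) and Car2 or Ehd1. Peli1, a ubiquitin ligase gene of toll-like and interleukin-1 receptor signalling, was among the nearest of both Il1a (0.946 with probe 1327) and Il1b probe 1321 (0.969 with probe 11567). Il1rn, over the 11 groups it has, was most like Noct (0.948) and Hspa1b (0.947), an inducible heat shock protein gene. Its highest group means, 2.84 with LPS+IFNG and 2.37 with LPS+2MA at 1 h, rest on 1 array each. These correlations share libraries and describe likeness only. Il1a and Il1b themselves gave r from 0.911 to 0.947, and Il1rn with the ligands 0.784 to 0.876 over its 11 groups, those with 1 array included.

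Other genes of the interleukin-1 pathway were counted from a list of 45, of which 32 could be tested. At 4 h of LPS 18 of their 50 probes were called higher and 5 lower, with a median response of 0.07, against 11.9% and 14.3% of all probes and a median of 0.005. At 30 min of LPS 0 of 50 probes were called, where 0.807% of all probes were called higher. At 4 h of IFNG 16 of 51 probes were called higher and 0 lower (all probes 6.33% and 5.26%). With 2MA alone 1 of 49, 1 of 50 and 0 of 49 probes were called higher at 1, 2 and 4 h, near the 0.951%, 1.17% and 1.45% of all probes.

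Of the receptors, Il1rap, the accessory chain, rose at 4 h of LPS by 1.16 ± 0.36 and 1.51 ± 0.65 with its probes (adjusted p = 2.14e-07 and 1.34e-07), and the signalling receptor Il1r1 and the decoy Il1r2 gave means between 0.00 and 0.08. Il1r1 probe 9466 depended on the dye: it read 0.80 on arrays with treated RNA in Cy5 and -0.63 on those with it in Cy3. Of the family ligands, Il18 rose by 2.85 and 2.45 and its binding protein Il18bp by 1.64 and 2.19 at 4 h of LPS. Il18bp was higher still with LPS+IFNG, by 1.03 and 1.17 (adjusted p = 9.63e-05 and 0.000309). Il36a, listed as Il1f6 in RefSeq, rose by 1.33 with probe 8282, while its other probe gave -0.04.

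In the signalling list Peli1 gave means of 1.42, 2.23 and 2.53 at 1, 2 and 4 h of LPS (probe 1327), and Myd88, the shared adaptor, rose by 1.27 at 4 h. Among the inflammasome and release genes, Casp1, which cuts the Il1b precursor, rose by 1.78 at 4 h of LPS and by 1.74 at 4 h of IFNG, and Casp4 by 1.50 and 1.90 with its probes at 4 h of LPS. P2rx7, the ATP-gated channel, gave -0.30 and -0.18 at 4 h of LPS and was not called (adjusted p = 0.414 and 0.36). Nlrp3, the inflammasome sensor, had 0 probes under its symbol on the array and could not be tested.

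Il33, a family alarmin, was singled out after its values were seen. It read 0.52, 0.38 and 0.46 with LPS at 4 h, 1.78, 1.07 and 1.11 with LPS+IFNG and 3.33, 2.74 and 2.04 with LPS+2MA. The LPS+2MA sets did not overlap the LPS sets, and the difference of 2.25 was called (adjusted p = 9.19e-05).

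**Figure D4:**
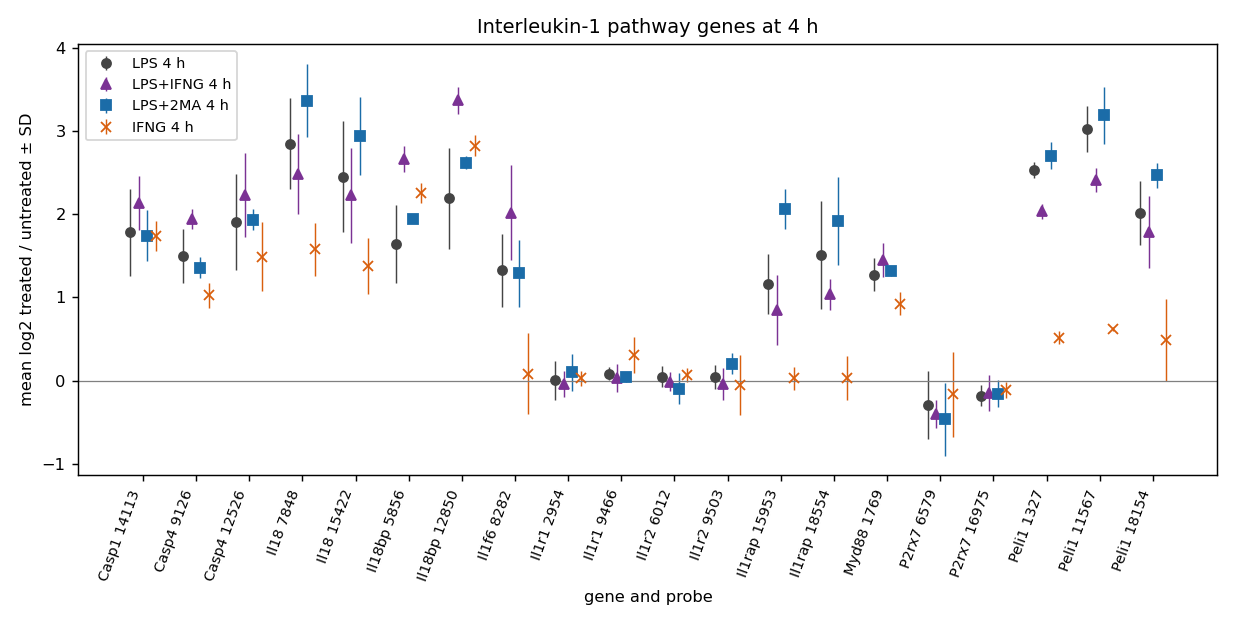
Mean log2 ratio of treated to untreated RNA at 4 h (y axis), with bars of 1 SD over sets, for probes of the named pathway genes (x axis) under LPS, LPS+IFNG, LPS+2MA and IFNG. Il18, Il18bp, Casp1, Casp4, Myd88 and Peli1 lie above 0 with LPS, and Il1r1, Il1r2 and P2rx7 stay near or below 0.

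The genes beside the members on chromosome 2 were called about as often as probes in general. The 5 genes with a probe on each side of the ligands and of Il1rn gave 24 probes of 20 genes, of which 3 were called higher and 5 lower at 4 h of LPS, against 11.9% and 14.3% of all probes, between -1.07 and 1.33. The highest was Il1f6, a family member beside Il1rn, and next came Slc20a1, a phosphate transporter gene, at 0.61 (adjusted p = 0.0333). Sirpa, an inhibitory receptor gene of macrophages, was lowest, at -1.01 and -1.07 with its probes.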

How the data were processed

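Array values of 96 samples were used as the authors deposited them: log2 ratios, read as Cy5 over Cy3 with channel roles per the labels. The image analysis, background correction and normalisation are not given in the sources used here. A log2 base was read from the largest value, 6.64, which is log2 of 100, and the direction rests on the channel labels. Centring stays unknown: the median of every array is 0 with zeros included, and the nonzero medians lie between -0.0183 and 0.0442. Exact zeros, 1277 to 2773 per array, were read as no measurement. Columns of other samples number 0.

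Ratios with treated RNA in Cy3 were sign-turned, and both orientations of a set were averaged (a single one was used where the other had no value). Probe symbols come from the platform annotation of 2016, brought to RefSeq symbols (GRCm38.p6) by gene ID; 13738 probes have 1 symbol, 52 several and 2491 none. Linear models with 1 mean per group and limma moderation (limma 3.58.1, R 4.3.3) were fitted to 15306 probes (median residual SD 0.213, prior degrees of freedom 4.86). A probe was tested in a comparison with values in at least 2 sets of each group. Tests were two-sided, with Benjamini-Hochberg adjustment over all probes tested in a comparison and a threshold of 0.05. The code was tested on simulated data.

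Members, lists and tests were chosen with earlier results of these data known. The named genes follow a rule: every member probe; pathway genes called with LPS alone at an absolute mean of at least 1, plus P2rx7, Il1r1, Il1r2, Casp1 and Nlrp3; 5 neighbours on each side; and the 5 most correlated probes of other genes. Sets were taken as paired where same-numbered sets left their group means in like ways, with r over 0.1 across probes in every pair of groups. This held for LPS+IFNG against LPS (lowest 0.16) and for LPS+2MA against LPS at 2 and 4 h (0.148 and 0.333), not at 1 h (0.0891); for the sum with IFNG at 1 and 4 h and with 2MA at 2 and 4 h; and for LPS at 1 h against 30 min and 4 h against 2 h. Plots used matplotlib 3.10.9 in Python 3.11.15. Alternatives tried were zeros kept, complete probes, gene averages, median centring, 1 orientation, both orientations required, fits to the compared groups, sets left out, sets as a block, and array values with a dye term.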

Additional observations from a re-analysis of the deposited data

Results flagged for a closer look

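The 7 called steps between LPS times differ between time points by the test of the difference itself. They are Il1a from 1 to 2 h (2.01 with probe 2818 and 1.82 with probe 16708), Il1b from 30 min to 1 h (1.60, 1.79 and 1.54 with probes 1321, 3465 and 11552) and Il1b from 1 to 2 h (2.03 and 1.81 with probes 1321 and 3465).

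In 2 cases every set lay below 0 at one time and above 0 at another, and the difference between those times was not tested. Il1b probe 1321 was lower with LPS+IFNG than with LPS at 1 h (-0.63) and higher at 2 h (0.24), 0.87 apart. Il1a probe 16708 exceeded the sum of the LPS and IFNG responses at 1 h (1.07) and lay below it at 2 h (-0.21), 1.28 apart.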

How the results depend on the processing

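None of the 176 single results of Il1a, Il1b and Il1rn changed direction as a call under the alternatives, and of 2085 recomputed values 1987 stayed on their side of the threshold, 54 lost a call and 44 gained one. Of the responses, 59 were called, between 53 and 61 under the other settings with probes kept apart, from 47 to 54 with a set left out, and 27 of 41 with probes of 1 gene averaged, where fewer tests exist. For LPS with a second ligand, 1 call became 2 with zeros kept, 3 with complete probes, 2 with treated RNA in Cy5 only, 0 in Cy3 only, 2 with both orientations required, 4 when only the compared groups were fitted, 5 with the set as a block, and 0 to 5 with a set left out. Against the sum, 0 calls became 1 with zeros kept, 2 with the compared groups only, 3 with the set as a block and 0 to 1 with a set left out. For LPS times, 7 calls became 10 when only the compared groups were fitted, 9 with the set as a block, 4 with Cy3 only, 3 with gene averages and 1 to 5 with a set left out; for the change with time, 0 became 2 with the set as a block and 0 to 2 with a set left out. Calls over all probes changed under the same settings too, as given with several of the comparisons above. The cause was not tested.

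Where set numbers did not pair the samples, the block gave adjusted p = 0.00402 for Il1a probe 16708 with LPS+2MA against LPS at 1 h, 0.00635 for both Il1a probes against the sum with 2MA at 1 h, 0.0195 and 0.0107 for the change of the IFNG effect on Il1a, and 0.0119 for Il1b probe 11552 from 1 to 2 h of LPS. In that order, the block raised the calls over all probes from 17 to 55, 3 to 23, 185 to 394 and 347 to 416. The set as a fixed block changed no other call of these genes beside those given in the report.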

Other observations

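Il1rn was not alone in losing its values at late LPS times. Of 14067 probes with a value on at least 90% of the 36 arrays without LPS, 4 (0.0284%) had none on any of the 18 arrays with LPS at 4 h. Beside Il1rn probe 6346 they are Acod1, the itaconate synthase gene, Ifit2, an interferon-induced gene, and Mt2, a metallothionein gene. At the earlier LPS times, over arrays, Acod1 read 1.63 at 30 min, 3.73 at 1 h and 5.37 on the 1 array with a value at 2 h, Ifit2 -0.04, -0.21 and 2.91, and Mt2 0.22, 0.65 and 1.34. Ifit2 was below 0 at 30 min and 1 h and above 0 at 2 h, and the others were above 0 at each of these times. These genes were chosen after their values were seen.

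The split of set 3 from sets 1 and 2 in LPS+IFNG at 4 h also touched other genes. Among the 10 probes with the largest excess of set 3 were also Sgk1, a kinase gene, with -0.36, -0.41 and 2.24 (probe 11337), Gpr34 with 0.42, 0.15 and 2.74, and Lif, a cytokine gene, with 0.65, 0.54 and 2.76. The rest of these probes were Sgk1 probe 2843 (-0.12, -0.68 and 2.08), Tnnt1 (-1.49, -0.26 and 1.75) and Cwc15 (-1.51, -0.30 and 1.61). Atp5j (-0.09, -0.48 and 1.92) and Camk2b (-0.08, -0.25 and 2.02) completed them. Csf3, the granulocyte growth factor gene, read 2.66, 2.43 and 4.58 there and 3.94, 4.08 and 4.52 with LPS alone (probe 6317). Its other probe, 18418, showed no rise. It read -0.01 and -1.40 in sets 1 and 2 with LPS+IFNG, without a value in set 3. With LPS alone it read -0.31 and -0.22 in sets 2 and 3. These genes, too, were chosen after their values were seen.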
